A study of Mus musculus with 6 samples.

Results

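The immunity-related GTPases are a family of mouse genes that interferons switch on. Of the 55357 genes in the deposited table, 9 are described here, namely Irgm1, Irgm2, Igtp, Iigp1, Tgtp1, Tgtp2, Ifi47, F830016B08Rik and Gm12185. They were taken by gene name, and they had been picked with the difference between the study's groups already known, so that difference is described for them without a test. RNA-seq was performed on primary cortical astrocytes cultured from embryos of C57BL/6 mice. The KE group consisted of 3 cultures (genotype label K499E) that were transfected to express BRAF KE, a RASopathy-associated form of the kinase BRAF. For its staining of cultured astrocytes, the paper describes a plasmid with FLAG-tagged BRAF KE under the CMV promoter, which is active in most cell types. It was given there with a GFP plasmid, and the paper does not state whether the sequenced cultures received both. The NT group consisted of 3 nontransfected cultures, with the genotype label naive. The KE cultures were collected 48 hours after transfection. Cultures given BRAF WT or a plasmid without insert are not among those analysed here, so the delivery of a plasmid and the expression of BRAF KE cannot be told apart. Neither the labels nor the study's methods say whether the cultures were separate preparations, and the spread between them may then be technical.

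Members of the family are GTP-binding proteins that coat the vacuoles in which some intracellular pathogens live, the parasite Toxoplasma gondii among them, and help to break them open. Effector proteins, known as GKS proteins after a motif of their GTP-binding site, load onto the vacuole. Regulatory proteins, known as GMS proteins after the altered form of that motif, sit on the cell's own membranes and hold the effectors inactive there. Mouse astrocytes treated with interferon gamma are one of the cell types in which this loading has been studied. The regulators among the members are Irgm1, Irgm2 and Igtp (also called Irgm3). The effectors are Iigp1 (Irga6), Tgtp1 and Tgtp2 (both Irgb6) and Ifi47 (Irgd). F830016B08Rik and Gm12185 were assigned to neither class.

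The genes lie in groups of tandem copies. On GRCm39, Irgm1 occupies chr11:48752795-48763164 on the minus strand, Gm12185 chr11:48795483-48883147 on the minus strand, Tgtp1 chr11:48876154-48884999 on the minus strand, Tgtp2 chr11:48948021-48955033 on the minus strand and Ifi47 chr11:48967412-48987813 on the plus strand. A second group on the same chromosome holds Igtp at chr11:58089840-58098417 and Irgm2 at chr11:58090444-58113615, both on the plus strand. F830016B08Rik and Iigp1 lie on another chromosome. All 9 are annotated as protein coding.

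Interferon signals reach such genes through short DNA elements. One is the interferon-stimulated response element (ISRE), and the other is the gamma-activated site (GAS). Promoter windows of RefSeq (250 bases before to 50 bases after the annotated start, table build GRCm38.p6) were found for 7 of the 9 members and not for Iigp1 and F830016B08Rik. They were searched on both strands for ISRE letters (GAAA, any 2 bases, GAAA) and for GAS letters (TTC, any 3 bases, GAA), the latter reading the same on either strand, and were placed on GRCm39 by exact match. The stretches around the matches are shown because 5 of the members share one arrangement, a GAS followed after 2 bases by an ISRE. Capitals mark the ISRE and GAS letters, and each stretch reads 5′ to 3′ on the strand of its gene.
Irgm2, chr11:58105716-58105760, plus strand: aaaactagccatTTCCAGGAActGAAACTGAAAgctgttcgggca
Igtp, chr11:58090325-58090369, plus strand: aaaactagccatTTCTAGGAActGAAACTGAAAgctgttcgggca
Tgtp1, chr11:48883129-48883173, minus strand: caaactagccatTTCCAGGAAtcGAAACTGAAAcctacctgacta
Tgtp2, chr11:48955088-48955132, minus strand: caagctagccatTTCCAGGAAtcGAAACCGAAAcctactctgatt
Gm12185, chr11:48818063-48818107, minus strand: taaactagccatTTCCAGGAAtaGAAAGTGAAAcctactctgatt
Irgm1, chr11:48762250-48762289, minus strand: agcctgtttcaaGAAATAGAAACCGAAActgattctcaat
Ifi47, chr11:48977744-48977783, plus strand: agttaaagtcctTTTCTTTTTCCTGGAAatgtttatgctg

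The joined letters (a GAS, any 2 bases, an ISRE) occurred in 5 of the 32851 RefSeq windows (0.0152%), and all 5 belong to members: Irgm2, Igtp, Tgtp1, Tgtp2 and Gm12185. These genes are copies of one another, so the 5 matches are not independent. Only this order and spacing were counted, and they are those of the 5 members themselves. Nothing is therefore read from the rarity of the pattern. Over all windows, ISRE letters stood in 1131 (3.44%), GAS letters in 2726 (8.3%) and both in 149 (0.454%). The GAS of the joined element began 45 bases before the start of Igtp (position -45) and 75 to 88 bases before the starts of the other 4 (positions -75 for Irgm2, -81 for Tgtp2, -86 for Gm12185 and -88 for Tgtp1). Irgm1 had 2 overlapping ISREs, from -30 to -21 and from -24 to -15, and no GAS of these letters. The RefSeq window of Ifi47 held neither element. At the start that Gencode vM39 takes as canonical for Ifi47, an ISRE on the opposite strand (-105 to -96) overlapped a GAS (-98 to -90). A further GAS stood at -224 to -216. A Gencode window was searched for Ifi47 alone, and the shares over all windows cover RefSeq windows only. For 2 of the genes with the joined element, Gencode vM39 places the canonical start far from the RefSeq one, by 15359 bases for Irgm2 and 65138 bases for Gm12185. The distance was 263 bases for Igtp, 74 bases for Tgtp1 and 8 bases for Tgtp2. Such matches are descriptions of the sequence, not measured binding sites.

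**Figure D1:**
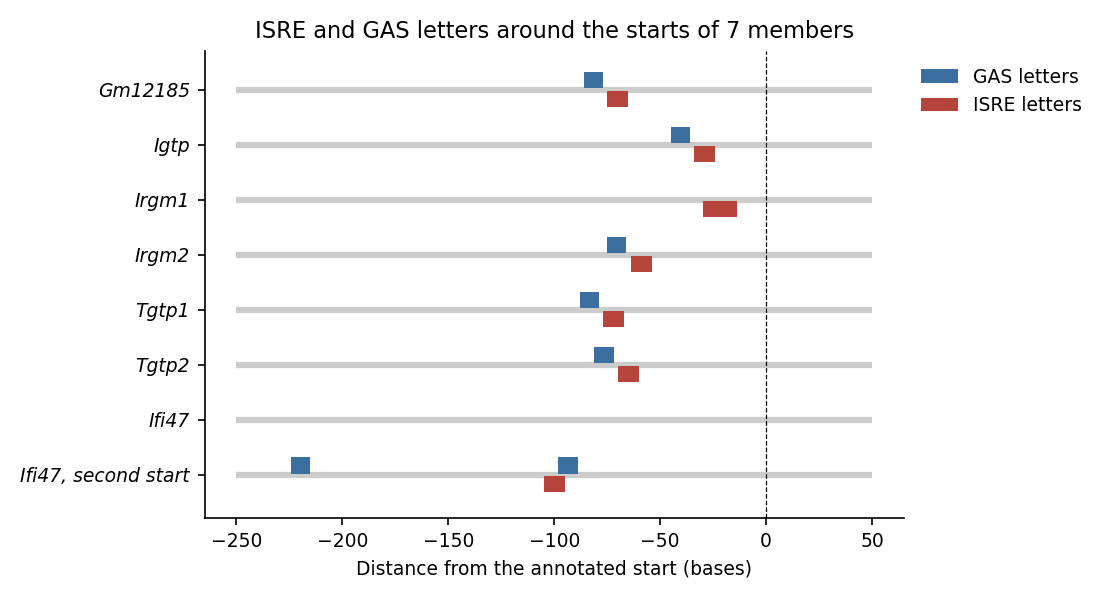
Positions of ISRE letters (red, below each line) and GAS letters (blue, above each line) along the windows of 7 members, in bases from the annotated start (dashed line). Each grey line is a window of 300 bases, the second start of Ifi47 is the Gencode one, and the 5 genes with a GAS just upstream of an ISRE are Gm12185, Igtp, Irgm2, Tgtp1 and Tgtp2.

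The deposited values are normalized counts, for which the authors scaled Salmon's gene counts by a DESeq2 size factor per library. The normalized counts of Braf, the transfected gene, were between 34933 and 40978 in the KE cultures and between 811 and 946 in the NT cultures. All 10 astrocyte markers were detected at a mean of at least 10, and their summed level was 194523 to 200354 in KE and 142105 to 150693 in NT. Of these markers 7 rose, 1 fell (Gja1, log2FC -0.46) and 2 were not called (Aqp4, log2FC 0.02, and S100b, log2FC -0.60), where 25.3% of all tested genes rose and 26% fell. The rise of Slc1a3 was not called after quantile normalization (adjusted p = 0.209 by limma). All 14 microglial markers fell, with a median log2FC of -3.28 and a summed level of 5331 to 7349 in KE against 43192 to 50090 in NT. In bulk RNA, fewer cells of a type and less RNA per cell cannot be told apart, and the part of the microglia in the members' levels was not tested. Of the 10 T and NK cell markers 6 were at 0 in every culture, Cd3d, Cd3e, Cd3g and Cd8a among them, and the list summed to 4.89 to 7.49 in any culture. Approximate depths were 24500000 to 34100000 reads, KE replicate 2 being the shallowest.

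All 9 members were higher in KE than in NT. Their normalized counts summed to 68218 ± 1741 in KE against 9005 ± 1587 in NT (mean ± SD of 3 cultures each), a 7.58-fold difference. They took 0.222% ± 0.0062 (SD) of the culture total in KE and 0.0295% ± 0.0052 (SD) in NT. Folds here are ratios of group means, while log2FC is the difference of the mean log2(normalized count + 1), so the 2 need not match exactly. Folds ran from 4.90 for Irgm2 to 58.0 for Tgtp2, and the median log2FC of the 9 was 3.88 (0.00 over the 15280 genes tested). Each of the 9 had its lowest KE culture above its highest NT culture, as did 30.1% of all tested genes, while 29.9% lay wholly below. Over all tested genes, limma called 3870 (25.3%) higher and 3974 (26%) lower in KE at an adjusted p under 0.05, or 51.3% in either direction. Because the members had been chosen on this contrast, no call is given for them, and nothing is read from their lack of overlap. All 9 passed the filter on low values, and each had a mean above 10 in NT alone.

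**Figure D2:**
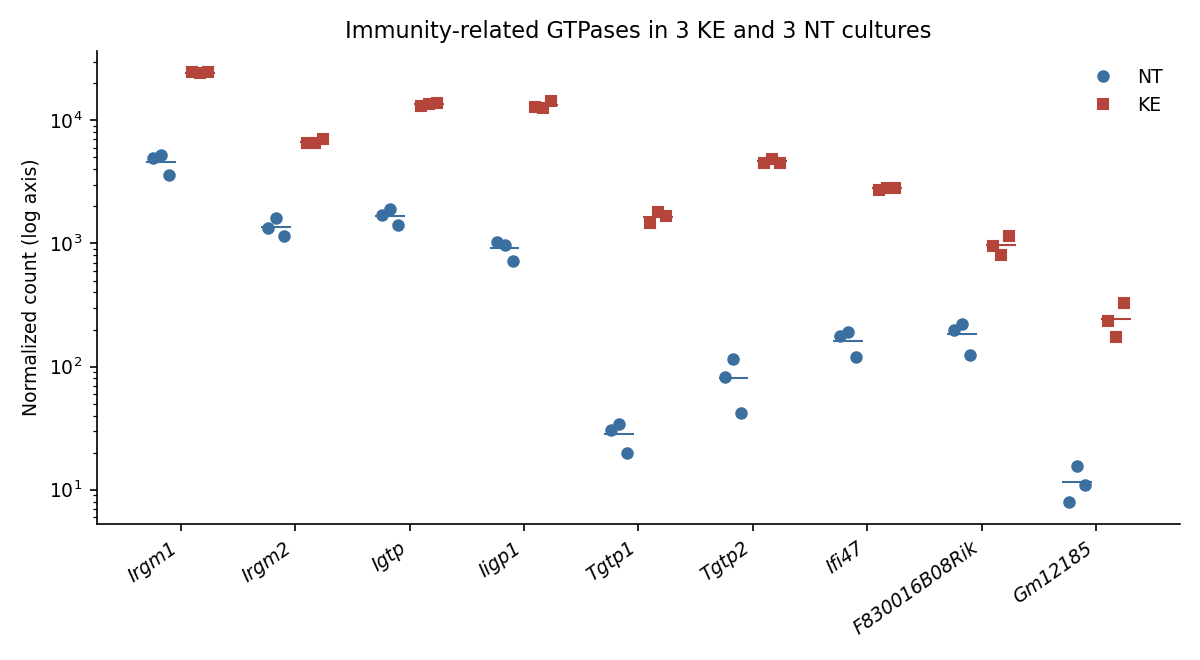
Normalized count (log axis) of the 9 members in each culture, with NT as blue circles, KE as red squares and a horizontal line at each group mean (n = 3). Every KE value lies above every NT value of the same gene, and the distance is widest for Tgtp1 and Tgtp2.

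Irgm1, a regulator found on the Golgi apparatus and lysosomes, had the highest level per kilobase in the family. Its normalized counts were 24607, 24085 and 24614 in KE replicates 1 to 3 and 4960, 5215 and 3624 in NT replicates 1 to 3, a 5.31-fold difference with a log2FC of 2.43 (standard error 0.11). The KE cultures had a coefficient of variation of 1.24%, while NT replicate 3 stood below the other NT cultures. Irgm2, a second Golgi regulator, gave 6551, 6532 and 7005 in KE and 1345, 1601 and 1154 in NT, a log2FC of 2.30 (standard error 0.10). Igtp, a regulator of the endoplasmic reticulum and lipid droplets, gave 13197, 13615 and 13798 in KE and 1691, 1895 and 1404 in NT, an 8.14-fold difference with a log2FC of 3.03 (standard error 0.09). Igtp thus had the largest log2FC of the 3 regulators. For both genes NT replicate 2 was highest and NT replicate 3 lowest.

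The 4 effectors had larger differences than the 3 regulators. Their log2FC values ran from 3.88 to 5.95 (14.6-fold to 58.0-fold), and those of the regulators from 2.30 to 3.03 (4.90-fold to 8.14-fold). The ranges of these classed members did not meet. Among family genes outside this comparison, F830016B08Rik (2.44), Gm4951 (2.80) and Gm4841 (2.68) lay within the regulators' range. Gm12185 (4.30) and Gm12250 (4.10) lay within that of the effectors, and the other tested ones below both. Iigp1, the effector whose crystal structure was the first of the family to be solved, gave 12909, 12541 and 14307 in KE and 1033, 975 and 725 in NT, a log2FC of 3.88 (standard error 0.11). Ifi47 gave 2741, 2846 and 2811 in KE and 178, 191 and 119 in NT, a 17.2-fold difference with a log2FC of 4.13 (standard error 0.15). NT replicate 3 was again the lowest culture for both.

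Tgtp1 and Tgtp2, effectors first found in T cells, had the largest differences of the family and ranked at 5 and 4 among the 15280 tested genes by log2FC. Tgtp1 gave 1460, 1787 and 1666 in KE and 30.7, 34.2 and 20.03 in NT. Its log2FC was 5.83 (standard error 0.18) and its ratio of means 57.9. Tgtp2 gave 4522, 4863 and 4538 in KE and 81.8, 116 and 42.2 in NT, a log2FC of 5.95 (standard error 0.27), and its ratio of means was 58.0. The NT values of Tgtp2 spread over a coefficient of variation of 46.2%, the widest of any member, and 4.14% in KE. The coding sequences of the pair match at 1241 of 1245 bases (99.7%), and 85.7% of the 31-base words in the transcripts of Tgtp1 and 90.5% of those of Tgtp2 also occur in other genes of the family. Salmon's division of reads between them is therefore uncertain. Their sum does not depend on it, and was 5982, 6649 and 6204 in KE and 112 (NT replicate 1), 150 (NT replicate 2) and 62.3 (NT replicate 3), a log2FC of 5.93. Tgtp2 took 73.1% to 75.6% of the sum in KE and 67.8% to 77.3% in NT, ranges that overlap.

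F830016B08Rik (chr18:60426445-60438660, plus strand) lies beside Iigp1 (chr18:60506680-60525706, plus strand) on GRCm39. It gave 951, 813 and 1159 in KE and 200, 223 and 124 in NT, a log2FC of 2.44 (standard error 0.20). This value lies within the range of the regulators, although its coding sequence is closest to that of the effector Iigp1 (67.7% of aligned bases, against at most 63.8% to any other member). Of its 31-base words, 25.0% also occur in annotated transcripts outside the family, so part of its reads may be assigned with less certainty. Gm12185, the least abundant member, gave 235, 172 and 329 in KE and 7.89, 15.6 and 10.97 in NT, a log2FC of 4.30 (standard error 0.29). It was the only member whose KE cultures spread nearly as widely as its NT cultures, with coefficients of variation of 32.2% and 33.8%. Its coding sequence of 2505 bases is longer than those of the other members (1179 to 1269 bases) and matches Tgtp1 at 76.5% of aligned bases. Gm12185 and Tgtp1 also share 317 exon bases on the same strand, since a transcript of Gm12185 begins at the start of Tgtp1. Irgm2 and Igtp share 162 exon bases in the same way. At 5681 exon bases for Gm12185 and 3742 for Irgm2, most of each gene is outside the shared stretch.

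Levels of different genes were compared per kilobase of the canonical transcript. In NT the order was Irgm1 (2205 ± 410 normalized counts per kilobase, SD, n = 3), Igtp (728 ± 108), Irgm2 (392 ± 64.3), Iigp1 (299.7 ± 53.9), Ifi47 (95.1 ± 22.4), F830016B08Rik (21.1 to 37.9), Tgtp2 (28.5 ± 13.2), Tgtp1 (9.81 ± 2.55) and Gm12185 (2.15 ± 0.73). Irgm2 and Iigp1 overlapped there, as did F830016B08Rik and Tgtp2, and the other neighbours in the order did not. In KE the order was Irgm1 (11714 ± 146), Igtp (5924 ± 135), Iigp1 (4359 ± 307), Irgm2 (1920 ± 76.7), Tgtp2 (1652 ± 68.4), Ifi47 (1638 ± 31.3), Tgtp1 (568 ± 57.3), F830016B08Rik (166 ± 29.7) and Gm12185 (45.9 ± 14.8). Only Tgtp2 and Ifi47 overlapped. Iigp1 thus stood above Irgm2 in every KE culture, and Tgtp1 above F830016B08Rik, the reverse of the order of their means in NT.

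The make-up of the family differed accordingly. The 3 regulators together made up 87.8% ± 0.63 (SD, n = 3) of the summed level per kilobase in NT cultures and 69.9% ± 0.58 in KE cultures. Irgm1 alone went from 58.1% in NT to 41.9% in KE and Irgm2 from 10.4% to 6.86%, while Igtp rose from 19.3% to 21.2%. Iigp1 went from 7.91% to 15.6%, Tgtp2 from 0.726% to 5.91%, Ifi47 from 2.49% to 5.85% and Tgtp1 from 0.256% to 2.03%. The share of the regulators was between 87.1% and 88.4% in the NT cultures and between 69.3% and 70.4% in the KE cultures, so it varied less between cultures of a group than the levels did.

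**Figure D3:**
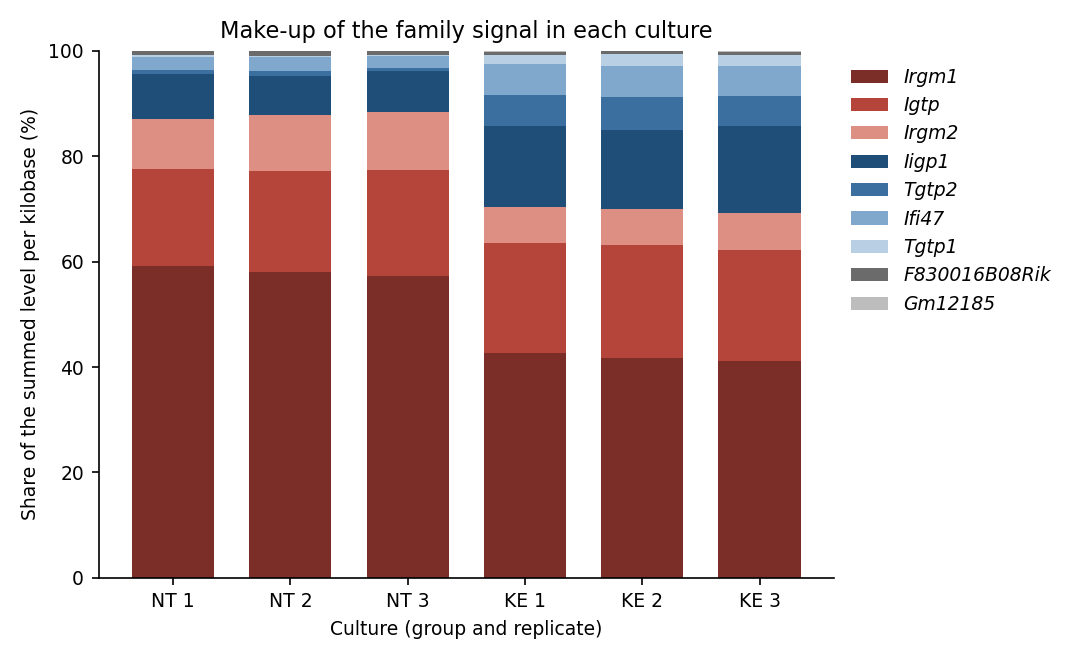
Share of each member (%) in the family's summed level per kilobase in the 3 NT and 3 KE cultures, with the regulators in reds, the effectors in blues and the unassigned genes in greys. The red share is 87.1% to 88.4% in NT and 69.3% to 70.4% in KE.

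Within NT, the members deviated together. NT replicate 3 was the lowest culture for 8 of the 9 (Gm12185, lowest in NT replicate 1, was the exception) and NT replicate 2 the highest for 8 (Iigp1, highest in NT replicate 1, was the exception). The median deviation of the members from their NT mean, on the log2 scale, was -0.33 in NT replicate 3, 0.15 in NT replicate 1 and 0.26 in NT replicate 2, against values within 0.01 of 0 over all tested genes. In NT replicate 3 the median deviation was also -0.38 over the guanylate-binding proteins, -0.10 over the microglial markers, whose sum was lowest in that NT culture, -0.25 over the vascular and mesenchymal markers, -0.05 over the oligodendrocyte lineage markers, -0.04 over the neuronal markers and 0.06 over the astrocyte markers. The part of these cell types in the deviation was not tested. In KE the median deviations of the members were between -0.03 and 0.03. The coefficient of variation was lower in KE than in NT for all 9 members, as it was for 48.5% of 15269 genes with a mean of at least 10 and signal in both groups.

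Other genes of the family did not all share the members' direction. Of 8 listed, 7 were tested, of which 4 rose, 2 fell and 1 was not called, against 25.3% risen and 26% fallen over all tested genes. The median log2FC of the 7 was 1.19, and the adjusted p-values are those of limma with Benjamini-Hochberg adjustment over all tested genes. Gm12250, known as the effector Irgb10, is annotated as a transcribed processed pseudogene, and 100% of its 31-base words also occur in annotated transcripts outside the listed family genes, so the assignment of its reads is uncertain too. It gave 925, 931 and 986 in KE and 65.4, 64.0 and 38.3 in NT, with a log2FC of 4.10 (standard error 0.18, adjusted p = 3.02e-08). Gm4951 and Gm4841 on chromosome 18 rose by a log2FC of 2.80 (standard error 0.12, adjusted p = 2.54e-08) and 2.68 (standard error 0.24, adjusted p = 4.07e-06), the latter sharing 22.3% of its 31-base words with transcripts outside the family. These 3 thus lay within the range of the members.

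The remaining family genes stood apart. Gm5431 gave 36.1, 54.8 and 35.7 in KE and 158, 182 and 120 in NT and fell by 1.85 on the log2 scale (standard error 0.22, adjusted p = 4.94e-05). 9930111J21Rik1 fell by 1.24 (standard error 0.21, adjusted p = 0.000607), whereas 9930111J21Rik2 rose by a log2FC of 1.19 (standard error 0.22, adjusted p = 0.000881). These genes lie between Irgm1 and Tgtp2 and share 46.5% (Gm5431), 88.2% (9930111J21Rik1) and 61.1% (9930111J21Rik2) of their 31-base words with other family genes, so their values depend on how reads were divided. Irgq, a distant relative whose product is not a functional GTPase, gave 1613, 1809 and 1798 in KE and 1785, 1908 and 1829 in NT (log2FC -0.08, standard error 0.07, adjusted p = 0.322). Irgc, known for its expression in testis, was not tested, with a single value above 0 (0.989 in NT replicate 1).

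**Figure D4:**
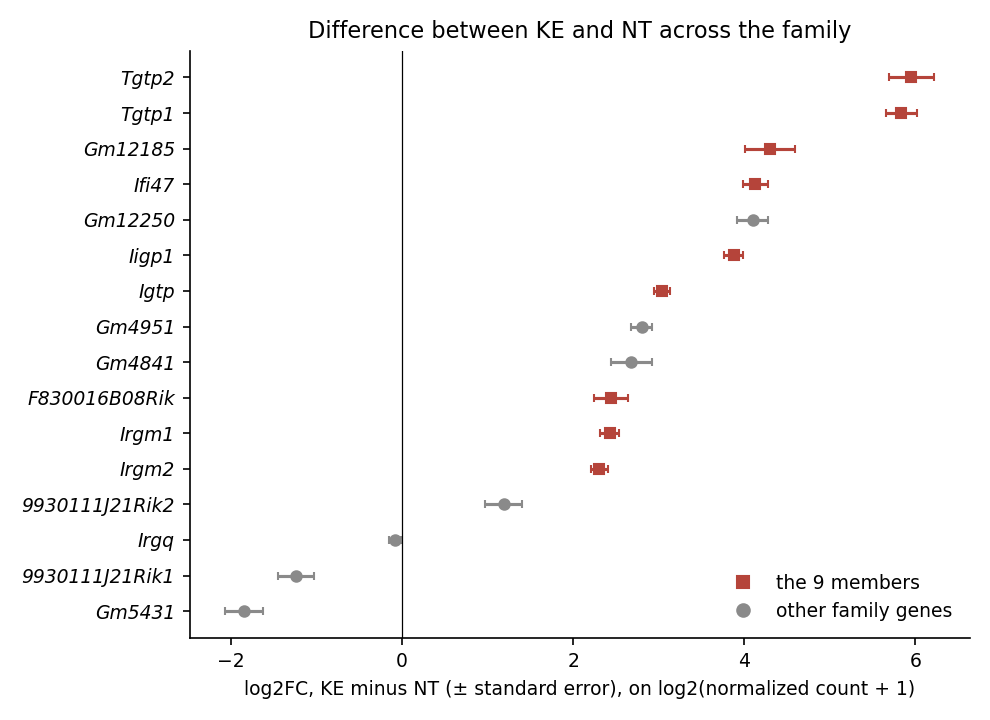
log2FC (KE minus NT) with its standard error for the 9 members (red squares) and 7 other family genes (grey circles), on the scale of log2(normalized count + 1), 3 cultures per group. The members run from 2.30 to 5.95, while Gm5431 and 9930111J21Rik1 lie below 0 and Irgq at -0.08.

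Most genes beside the members had a log2FC within 1 of 0. Within 200 kb of the members, 21 tested genes outside the list of the family had a median log2FC of 0.13; 9 rose, 4 fell and 8 were not called, where 25.3% of all tested genes rose and 26% fell. Only Olfr56, BC023105 and Gm5970 among them had a log2FC beyond 1 in either direction. Olfr56, an olfactory receptor gene, spans Ifi47 on the same strand and shares 111 exon bases with it. It gave 166, 169 and 187 in KE and 4.87, 7.78 and 6.57 in NT (log2FC 4.58, standard error 0.24). It passed the filter on low values only through the KE cultures, and is 1 of the 9 counted as risen. BC023105 (log2FC 3.52, standard error 0.14) and Gm5970 (log2FC 2.77, standard error 0.27) are annotated pseudogenes whose sequences match the coding sequence of Gm4841 at 94.5% and that of Iigp1 at 88.6% of aligned bases. Trim7 (log2FC 0.99), the nearest in size, lies beside Irgm1, and Rack1 (-0.40) and Gemin5 (-0.41) were among the genes that fell. These neighbours were chosen by distance after values had been seen.

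**Figure D5:**
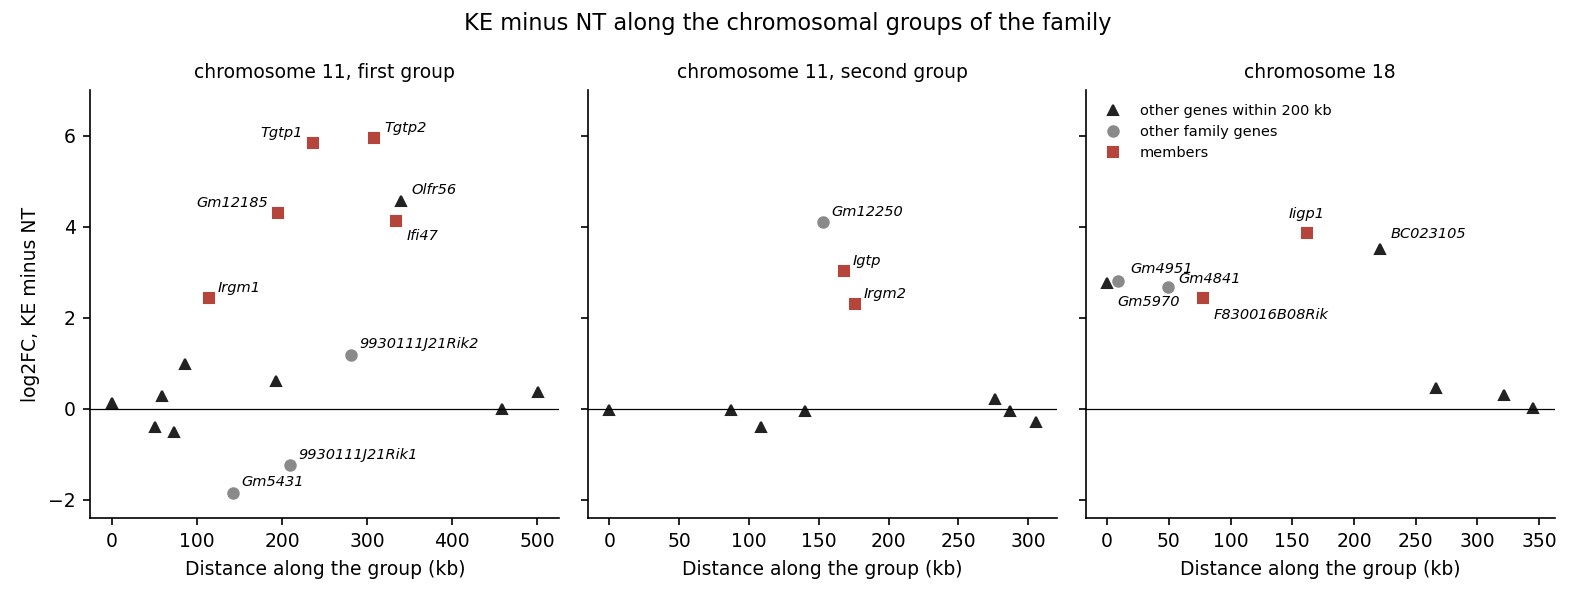
log2FC (KE minus NT) against distance along the chromosome (kb, from the first gene drawn) for the 3 chromosomal groups, with members as red squares, other family genes as grey circles and other tested genes within 200 kb as black triangles. Most triangles lie near 0, and those labelled are Olfr56, BC023105 and Gm5970.

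Of the genes that carry interferon signals to the family, 16 of 17 listed were tested, of which 11 rose, 3 fell and 2 were not called (median log2FC 0.37). Over all tested genes 25.3% rose and 26% fell. Ifnb1, which encodes interferon beta, was listed at 0 in every NT culture and gave 233, 198 and 235 in KE. It passed the filter on low values only through the KE cultures, and is 1 of the 11 counted as risen. Ifng, which encodes interferon gamma, was listed at 0 in all 6 cultures. Receptor genes differed little. Ifnar1 fell by 0.27 on the log2 scale (standard error 0.06, adjusted p = 0.00175) and Ifngr1 by 0.30 (standard error 0.06, adjusted p = 0.00227), while Ifnar2 rose by a log2FC of 0.51 (standard error 0.08, adjusted p = 0.000321) and Ifngr2 was not called (log2FC -0.09, standard error 0.08, adjusted p = 0.418).

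The kinases that the receptors use rose slightly, with a log2FC of 0.21 for Jak1 (adjusted p = 0.0124), 0.23 for Jak2 (adjusted p = 0.0246) and 0.22 for Tyk2 (adjusted p = 0.0353). The calls of Jak2 and Tyk2 ended without the variance trend (adjusted p = 0.0773 and 0.0503), and each ended without KE replicate 1 or NT replicate 3 (up to 0.102 for Jak2 and 0.0997 for Tyk2). Jak2 also lost its call without KE replicate 3, and Tyk2 without KE replicate 2 or NT replicate 1. Transcription factors downstream differed more. Irf7, an IRF protein that is itself induced by interferon, had a log2FC of 3.81 (standard error 0.15, adjusted p = 1.75e-08), which lies within the range of the members. Stat2 (log2FC 1.68), Irf1 (1.33) and Irf9 (0.87) rose as well, as did Socs1 (1.31), which encodes an inhibitor of the pathway. Irf8 fell by 2.79 on the log2 scale (standard error 0.14, adjusted p = 5.24e-08); it is a factor of microglia and other myeloid cells, whose markers fell too. Irf2 was not called (log2FC 0.14, adjusted p = 0.139).

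The proteins that mark and conjugate to vacuoles formed another list, and 10 of its 13 tested genes rose (25.3% of all genes did) and 3 were not called, with log2FC values of -0.10 to 0.06. The median of the 13 was 0.31. Of the 10, Atg3 and Gabarapl2, named for this after their values were seen, lost their calls without the variance trend (adjusted p = 0.0633 and 0.0518), without KE replicate 1 (0.0862 and 0.101) and without NT replicate 3 (0.0805 and 0.0762), and Gabarapl2 also without NT replicate 2 (0.0548). The largest differences were those of Trim21 (log2FC 1.83, standard error 0.10, adjusted p = 1.32e-07), a ubiquitin ligase, and Sqstm1 (log2FC 1.48, standard error 0.08, adjusted p = 8.29e-08), which encodes the ubiquitin receptor p62. The smallest were those of Atg5 (log2FC -0.02, adjusted p = 0.855) and Atg16l1 (log2FC 0.06, adjusted p = 0.448), 2 components of the conjugation machinery that effector loading needs, and neither was called. The members, at a log2FC of 2.30 or more, all lay above the highest gene of this list. Because they had been chosen on this contrast, nothing is read from that.

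The guanylate-binding proteins are a second family of interferon-inducible GTPases that act on the same vacuoles. All 10 tested genes of 11 listed rose (25.3% of all genes did), with a median log2FC of 2.64. The median of the members was 3.88, but they had been chosen on this contrast. The 7 other tested genes of their family had a median of 1.19, so no difference between the 2 families is read from these values. The largest were Gbp10 (log2FC 5.27, standard error 0.58, adjusted p = 2.48e-05) and Gbp11 (log2FC 5.03, standard error 0.21, adjusted p = 2.3e-08), and the smallest Gbp8 (log2FC 1.46, standard error 0.27, adjusted p = 0.000918) and Gbp7 (log2FC 2.01, standard error 0.11, adjusted p = 1.01e-07). The NT values of Gbp10 were 214, 178 and 26.1, so NT replicate 3 set much of its spread. Gbp2b was not tested.

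The genes whose pattern over the 6 cultures lay nearest to the median profile of the members, by Euclidean distance between centred log2 values, were Phf11d (distance 0.295), Gbp4 (0.296), Rsad2 (0.328), Irf7 (0.46) and Ifi44 (0.474). Their log2FC values were 3.58, 3.74, 3.85, 3.81 and 3.42 in that order. Among the members, Iigp1 (0.23) and Ifi47 (0.56) were nearest to that profile and Tgtp2 (2.81) farthest. Gbp4, for example, gave 3029, 3128 and 3067 in KE and 254, 269 and 176 in NT, with NT replicate 3 lowest as in most members.

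Outside the family, ISRE letters stood in the RefSeq windows of 432 tested genes, of which 42.6% were called higher and 25% lower in KE. Of 10970 tested genes without them, 25.9% were called higher. For GAS letters the shares called higher were 27.6% of 929 genes with them and 26.4% of 10473 without. Family genes were left out of these shares, which are given without a test.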

How the data were processed

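The authors deposited normalized counts (unit: signal, fractional gene counts from Salmon divided by DESeq2 size factors) for 55357 genes in 6 cultures. The study's methods name TrimGalore for trimming and STAR for alignment, on GRCm39 and Gencode models. The submitters' notes list GRCh38, although the identifiers are of mouse, and the methods mention unnamed batches, which could not be modelled. Such scaling evens out depth and assumes that most genes stay the same. Whole reads could not be recovered (74.7% to 77.6% of low values fell within 0.1 of a multiple of 1 read), so no count test was run, and precision rests on the spread over cultures.

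Of the deposited signal, log2(normalized count + 1) was fitted in limma 3.58.1 (R 4.3.3) with a variance trend and group as the only factor, for the 15280 genes with a mean of at least 10, two-sided, with Benjamini-Hochberg adjustment. The fit was tested on simulated data. A log2FC on this scale understates changes of low genes. Positions, transcript lengths and identities came from Gencode vM39 (GRCm39), and promoter windows from RefSeq.

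The members and lists were chosen with earlier results of these data known. Genes named are all members, all other family and interferon signal genes, the 2 largest and 2 smallest absolute log2FC of the vacuole and guanylate-binding lists, and the 5 nearest patterns. The values of 1 gene under this rule are not reported here. Neighbours within 200 kb were added later. Marker lists covered astrocytes, microglia, T and NK cells, neurons (1 of 5 tested rose), the oligodendrocyte lineage (7 of 7 tested fell) and vascular or mesenchymal cells (2 of 6 tested rose, 2 fell), against 25.3% risen and 26% fallen over all tested genes. Calls of Cspg4, Sox10, Olig1, Lum and Pecam1 in the last pair of lists ended under some alternatives, and Nefl, the neuronal marker that rose, was not tested under the stricter filter. Alternatives were other pseudocounts, filters and scalings, no trend, a replicate block, summing Tgtp1 and Tgtp2, and leaving out each culture.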

Additional observations from a re-analysis of the deposited data

How the results depend on the processing

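Every member stayed higher in KE under each alternative run. Their median log2FC was 3.87 to 3.88 over other pseudocounts, filters, scalings, no variance trend and the replicate block, and 3.72 to 3.97 with single cultures left out. Over the alternatives that kept all cultures, the log2FC of Gm12185 had the widest range of the members (3.90 to 4.36). With single cultures left out, that of Tgtp2 did (5.56 to 6.28). Over the other alternatives 3552 to 4214 genes were called higher and 3592 to 4079 lower, and 3280 to 3565 and 3496 to 3744 without single cultures. In the lists, 9 to 11 interferon signal genes, 8 to 10 vacuole genes and 9 to 10 guanylate-binding proteins rose, and the counts of the other family genes did not move. No scaling moved the median of all genes by over 0.03 on the log2 scale.

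The replicate numbers were not taken to pair the cultures, since deviations of same-numbered KE and NT cultures correlated across genes at 0.0589, 0.0664 and 0.0651, although each was the highest for its number. With the replicate block, 8046 genes were called against 7844, of which 7669 were shared, and the members' median log2FC was 3.88.

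With 3 cultures per group, the members with the largest standard errors of the log2FC were Gm12185 (0.29) and Tgtp2 (0.27). Reads shared between near-identical copies limit the values of Tgtp1, Tgtp2, Gm5431, 9930111J21Rik1, 9930111J21Rik2 and Gm12250, and in part those of Gm12185, F830016B08Rik and Gm4841, and the absence of an empty-plasmid control limits the contrast itself.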
